A study of Mus musculus with 17 samples.

Results

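The potassium channel family is described here by its RNA in single nuclei of the mouse posterior brain. Its members were the genes whose symbol begins with Kcn, apart from 2 symbols that the selection rule set aside. This gave 97 of the 26131 genes measured. By role they were 8 Kcna, 2 Kcnb, 4 Kcnc, 3 Kcnd, 8 Kcnh and 5 Kcnq voltage-gated subunits, 10 silent subunits that form channels only together with others, 16 auxiliary subunits, 8 members of the calcium- and sodium-activated channel families (the activated channels below), 14 inward rectifiers (Kcnj), 14 leak channels (Kcnk) and 5 other genes carrying the prefix.

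The animals were 17 female mice of 2.3 months from the strain named Human TfR knock-in, with the genotype hTfR KI HOM, so that every group including the controls carried the human transferrin receptor (TfR) allele on both chromosomes. Dosing was intravenous, 4 times over 24 days, and the brains were collected 72 hours after dosing ended. The groups were saline (n = 4), Malat1 ASO, a free antisense oligonucleotide against the nuclear noncoding RNA Malat1 at 2 mg per kg (n = 4), anti-TfR:Malat1, the oligonucleotide on an antibody to TfR at 50 mg per kg (n = 6), and OTV:Malat1, the oligonucleotide on a TfR-binding transport vehicle at 50 mg per kg (n = 3). Series title and design compare loss of the target between the carriers, so the potassium channel genes are not targets of any agent.

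Potassium channels let potassium leave the cell and so set the resting potential, end action potentials and space them in time. In neurons the voltage-gated Kcna, Kcnb, Kcnc, Kcnd, Kcnh and Kcnq subunits act at different sites and speeds, the calcium-activated channels follow calcium entry, and Kcnj channels carry currents near rest, some of them opened by G proteins. Glial cells, pericytes and microglia rely on a few leak and inwardly rectifying channels, through which they hold their resting potential.

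The count matrix held 1099241149 UMIs (unique molecular identifiers, each standing for 1 captured RNA molecule) from 284074 nuclei. Each animal gave 13841 to 18365 nuclei and 55393588 to 79866411 UMIs, and its median nucleus held 2894 to 4052 UMIs. Any 2 animals shared 0.330 to 0.623% of their cell barcodes. Values below are CPM, the UMIs of a gene in every 1000000 UMIs summed over the nuclei of a deposited cell type label or cluster in 1 animal. In the sums over all nuclei, fewer cells of a type and less RNA per cell cannot be told apart.

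The members held 21683585 UMIs, 1.97% of the total, and every member had at least 1 UMI. Kcnip4, a calcium-binding partner of Kcnd channels, alone held 39.5% of the members' UMIs. The fast-inactivating channel Kcnd2 held 11.3%, the large-conductance calcium-activated channel Kcnma1 6.71%, the M-current subunit Kcnq5 6.15%, and the ether-a-go-go-related channel Kcnh7 6.02%. The top 10 members together held 84.6%. At the other end, 7 members had fewer than 100 UMIs over all nuclei, from Kcnk16 with 5 to Kcne1l with 76, and are not described further. By role, auxiliary subunits held 43.8% of the members' UMIs, Kcnd 12.5%, Kcnq 11.2%, the activated channels 9.87%, Kcnh 7.89%, Kcnj 3.62%, Kcnc 3.56%, Kcnk 1.65%, Kcna 0.907% and silent subunits 0.351%.

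Nuclear RNA contains introns, and where reads in introns are counted, long genes can gather more UMIs. Whether they were counted is not stated here, and the part of gene span in the levels was not tested. The 18 members spanning over 200 kb on the mm10 genome held 88.0% of the members' UMIs. Kcnip4 spans 1136 kb on chromosome 5, Kcnma1 713 kb on chromosome 14, Kcnq5 564 kb on chromosome 1, Kcnd2 514 kb on chromosome 6 and Kcnh7 491 kb on chromosome 2. On the scale of CPM per kb of gene span, the order over all nuclei changed. Kcna1, a low-threshold channel of axons, spans 9.34 kb. It ranked 24th by CPM with 74.5 CPM and first per kb with 7.98 CPM per kb. Kcnip4 followed with 6.87 CPM per kb and Kcnd2 with 4.32 CPM per kb. In nuclei labelled Neurons, Kcnip4 led with 7.75 CPM per kb, ahead of Kcna1 with 5.82, Kcnd2 with 4.83 and the G protein-gated channel Kcnj9 with 4.32 CPM per kb. In Oligodendrocytes, Kcna1 reached 28.5 CPM per kb and Kcnip4 0.241 CPM per kb. In Astrocytes, the 3 highest members per kb were Kcnrg with 7.04, Kcnd2 with 3.73 and the calcium-binding auxiliary Kcnip3 with 3.50 CPM per kb. Kcnrg, which carries the prefix as a regulator rather than a pore, and the leak channel Kcnk6 led per kb in Microglia with 27.996 and 6.44 CPM per kb. All other levels are CPM and are compared within a gene.

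The deposited labels put 193268 nuclei in Neurons, 75282 in Oligodendrocytes, 8444 in Microglia, 4972 in Astrocytes, 1226 in Vascular cells, 657 in Perivascular macrophages and 225 in Glia. The labels matched their defining markers: the synaptic gene Snap25 was highest in Neurons (917 CPM), the myelin gene Mbp in Oligodendrocytes (4302), the glutamate transporter Slc1a2 in Astrocytes (5179), P2ry12 in Microglia (1263), Mrc1 in Perivascular macrophages (2778) and Flt1 in Vascular cells (1057). The median UMIs per nucleus differed, with 4614 in Neurons, 1279 in Oligodendrocytes, 1004 in Microglia and 1800 in Astrocytes. Members took 2.19% of the UMIs in Neurons, 0.541% in Astrocytes, 0.355% in Oligodendrocytes, 0.327% in Vascular cells and 0.241% in Microglia. Among the 6 labels other than Glia, 49 members reached a mean of 20 CPM in at least 1 label. Of these, 29 were highest in Neurons, 8 in Astrocytes, 5 in Vascular cells, 4 in Oligodendrocytes, 3 in Microglia and 0 in Perivascular macrophages. The ordering is a description over 17 animals and was given no test. RNA of genes that mark neurons was present in every other label. It stood at 4.23 to 18.6% of the Neurons level in Oligodendrocytes, 4.60 to 14.7% in Astrocytes, 5.63 to 24.0% in Microglia and 9.65 to 23.2% in Vascular cells, gene by gene. Of the 41 members at 20 CPM or more in Neurons, 11 lay above that range in Oligodendrocytes, 27 in Astrocytes, 11 in Microglia and 15 in Vascular cells. The part of neuronal RNA in the lower levels outside Neurons was not tested.

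**Figure D1:**
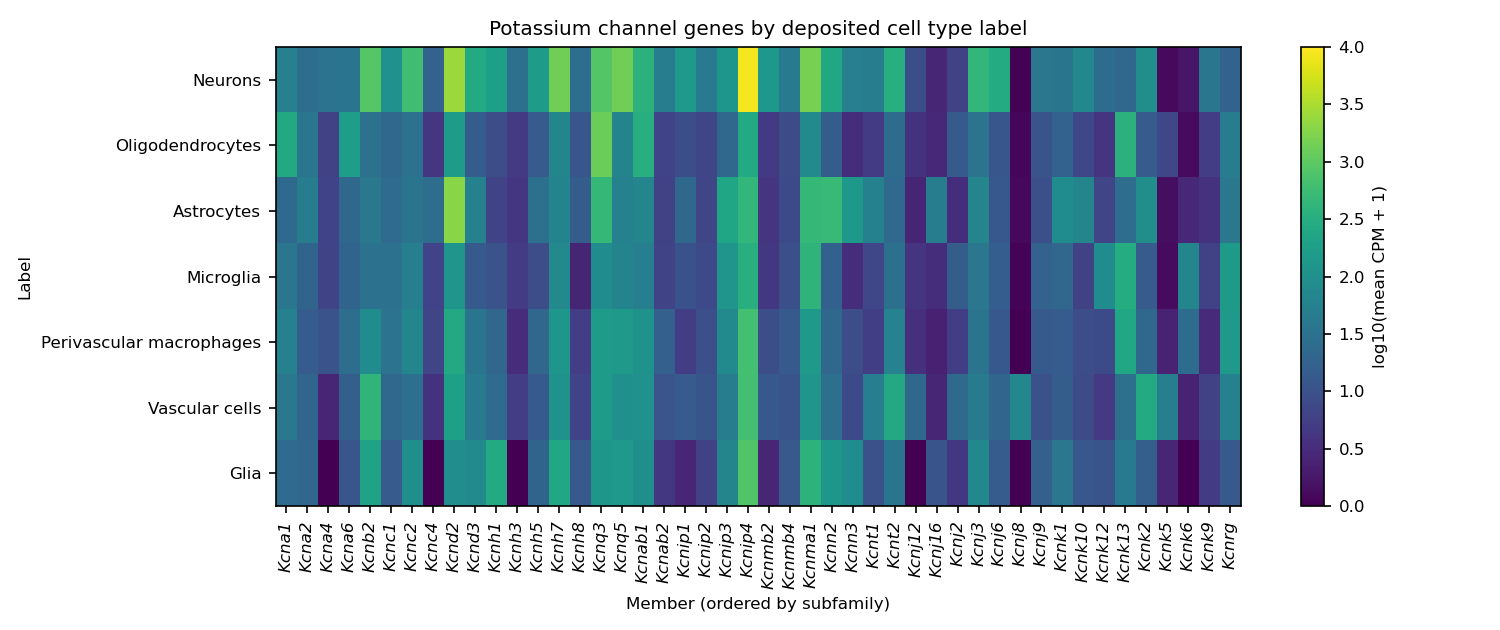
Mean CPM over animals of members that reached 20 CPM in at least 1 label other than Glia, as log10(mean CPM + 1) by colour, with members along the horizontal axis ordered by subfamily and the 7 deposited labels along the vertical axis. Most columns are brightest in Neurons, whereas Kcna1, Kcna6 and Kcnk13 are brightest in Oligodendrocytes, Kcnn2 and Kcnj16 in Astrocytes, Kcnk6 in Microglia, and Kcnj8 and Kcnk2 in Vascular cells.

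Among the auxiliary subunits, Kcnip4 in Neurons ranged from 7296 to 10105 CPM with a median of 8842 (mean 8803 ± 806, SD, n = 17). Its next levels were 817 CPM in Glia and 634 CPM in Perivascular macrophages, and Oligodendrocytes had 274 CPM, so no animal's Neurons value overlapped another label. Kcnip1, also a partner of Kcnd channels, had 137 ± 16.5 CPM (SD, n = 17) in Neurons, and Kcnmb2, a subunit that inactivates Kcnma1 channels, had 137 ± 12.8 CPM. Kcnab1, a cytoplasmic beta subunit of Kcna channels, did not separate Neurons from Oligodendrocytes. It stood at 373 ± 25.2 CPM in Neurons and 332 ± 59.0 CPM in Oligodendrocytes (SD, n = 17), and the ranges overlapped. Its means under the other labels were 50.0 CPM in Microglia to 107 CPM in Perivascular macrophages.

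Kcnd2 was high in both Neurons and Astrocytes. Neurons ranged from 2032 to 2951 CPM with a median of 2511, and Astrocytes from 1340 to 2520 CPM with a median of 1970. The ranges overlapped between animals, while within an animal Neurons were higher in 17 of 17. Every other label had a mean of at most 261 CPM. Kcnd3, the second A-type member by level, had 274 ± 27.1 CPM (SD, n = 17) in Neurons.

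Further voltage-gated members were highest in Neurons. Kcnq5 had 1366 ± 98.4 CPM, Kcnh7 1333 ± 99.4, the delayed rectifier Kcnb2 888 ± 42.2 and the fast delayed rectifier Kcnc2 601 ± 47.1 CPM (SD, n = 17). Kcnc1, a relative of Kcnc2, had 103 ± 11.5 CPM. Kcnma1 had 1485 ± 96.8 CPM in Neurons, 463 in Astrocytes, 399 in Microglia and 79.9 in Oligodendrocytes. The sodium-activated Kcnt2 had 338 ± 28.1 CPM in Neurons and 258 ± 94.5 in Vascular cells (SD, n = 17). The G protein-gated inward rectifiers Kcnj3 and Kcnj6 had 440 ± 47.7 and 284 ± 25.4 CPM in Neurons, and the leak channel Kcnk10 had 73.3 CPM. The silent subunits were low, the highest in Neurons being Kcnv1 with 17.2 CPM and Kcns3 with 15.0 CPM.

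Kcnq3, a subunit of the M-channel, differed from Kcnq5 in its highest label. It was highest in Oligodendrocytes, from 1022 to 1506 CPM with a median of 1229 (mean 1249 ± 138, SD, n = 17). Neurons ranged from 756 to 959 CPM with a median of 861, without overlap. Astrocytes had 454 ± 72.0 CPM and Microglia 88.5 CPM.

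The axonal channels Kcna1 and Kcna6 had the same highest label. Kcna1 in Oligodendrocytes ranged from 211 to 347 CPM with a median of 269, against 50.8 to 58.6 CPM with a median of 54.1 in Neurons. Kcna6 ranged from 144 to 195 CPM with a median of 160 in Oligodendrocytes and had 33.3 ± 2.85 CPM in Neurons (SD, n = 17). Neither gene's Oligodendrocytes range overlapped Neurons. Kcna1 (chr6:126636463-126645801) and Kcna6 (chr6:126708328-126740834) lie 62.5 kb apart on mm10. Kcna2, their usual partner in axonal channels, showed no such separation, with 48.0 ± 10.96 CPM in Astrocytes, 36.3 in Oligodendrocytes and 27.1 in Neurons, and Astrocytes highest in 12 of 17 animals.

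The leak channel Kcnk13 marked Oligodendrocytes, Microglia and Perivascular macrophages together. Oligodendrocytes ranged from 326 to 439 CPM with a median of 361, and Microglia from 217 to 353 CPM with a median of 294. Perivascular macrophages had 254 ± 97.2 CPM (SD, n = 17). The Oligodendrocytes and Microglia ranges overlapped, although Oligodendrocytes were the highest label in 16 of 17 animals. Neurons had 21.5 ± 1.98 CPM.

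In Microglia, Kcnk6 ranged from 37.0 to 108 CPM with a median of 64.8. Perivascular macrophages had 25.4 ± 27.0 CPM (SD, n = 17), and the remaining labels at most 1.90 CPM. Kcnk12, a member with little current of its own, ranged from 59.4 to 108 CPM with a median of 81.9 in Microglia and had 25.4 CPM in Neurons, and Microglia were highest in 17 of 17 animals. Kcnrg had 151 ± 35.9 CPM in Microglia and 138 ± 48.0 in Perivascular macrophages, which overlapped, and 17.3 CPM in Neurons. Microglia thus carried 3 leak channels above their Neurons level.

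Astrocytes were highest for the small-conductance calcium-activated channels. Kcnn2 ranged from 336 to 672 CPM with a median of 512 in Astrocytes and from 221 to 276 CPM in Neurons, without overlap. Kcnn3 ranged from 108 to 198 CPM in Astrocytes and had 54.5 ± 5.19 CPM in Neurons (SD, n = 17), while Glia with 87.0 CPM overlapped. The inward rectifier Kcnj16 ranged from 25.8 to 72.4 CPM with a median of 52.5 in Astrocytes. It had 9.88 CPM in Glia and at most 2.32 CPM elsewhere. Kcnip3 ranged from 194 to 292 CPM in Astrocytes, against 127 ± 9.72 CPM in Neurons, and the leak channel Kcnk1 had 87.8 ± 17.04 CPM against 35.2 in Neurons.

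Kcnj8, the pore of the vascular ATP-sensitive channel, was almost absent outside Vascular cells. There it ranged from 21.0 to 232 CPM with a median of 57.5 (mean 72.4 ± 50.5, SD, n = 17). Every other label had at most 0.226 CPM, and Perivascular macrophages and Glia had 0 UMIs, where 3 UMIs would be 3.98 and 6.24 CPM (counting error only). Its regulatory partner Abcc9 lies 16.2 kb away on chromosome 6 and had 262 CPM in Vascular cells. Kcnk2, a stretch-sensitive leak channel, ranged from 207 to 392 CPM with a median of 267 in Vascular cells, against 95.4 in Neurons and 92.9 in Astrocytes. Kcnk5, an alkaline-activated leak channel, had 51.1 ± 38.0 CPM there (SD, n = 17) and 6.16 CPM in Oligodendrocytes.

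The label Vascular cells joined nuclei with different markers. A division by marker lists, chosen after seeing the data, gave 186 endothelial, 390 mural and 567 fibroblast nuclei with 83 unassigned, pooled over animals with no replicate error. Kcnj8 had 249 CPM in the mural nuclei (103 UMIs), 46.5 in the endothelial nuclei (14 UMIs) and 0 UMIs in the fibroblast nuclei. Abcc9 had 906, 99.6 and 9.04 CPM in the same order. Kcnk2 was highest in the fibroblast nuclei, with 525.5 CPM (407 UMIs, all 17 animals), 67.8 in the mural and 23.2 in the endothelial nuclei. Kcnt2 was detected in all 3, at 347 CPM in fibroblast, 216 in mural and 92.9 in endothelial nuclei. Kcnb2, whose mean in Vascular cells was 415 ± 246 CPM (SD, n = 17), was 2409 CPM in the unassigned nuclei (338 UMIs from 13 animals) and 422 CPM in the fibroblast nuclei. The 83 unassigned nuclei thus held 338 of the 705 Kcnb2 UMIs under this label. Kcnk5 was likewise higher in the unassigned nuclei, with 242 CPM, than in the fibroblast nuclei, with 68.4 CPM.

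The 225 nuclei labelled Glia came in numbers of 20 or more from 5 animals. Kcnj13, an inward rectifier of transporting epithelia, had 161 ± 119 CPM there (SD, n = 5) and 7.51 to 16.6 CPM in the other labels. Kcne2, an auxiliary subunit known from choroid plexus, had 86.8 ± 43.0 CPM (SD, n = 5), 0.175 CPM in Neurons and 0 UMIs in 4 of the other labels. Ttr, the transport protein that marks choroid plexus, had 2483 CPM in the same nuclei and 18.4 to 84.1 CPM under the other labels. Most of the 10 leading genes of the label were genes of motile cilia, among them Spag16 at 1059 CPM and Dnah6 at 341 CPM, so its nuclei are not described as choroid plexus alone.

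The Neurons label divides into 20 deposited clusters. The 8 compared here, clusters 1, 3, 5, 7, 8, 9, 10 and 12, held 8043 to 36109 nuclei each. In their description, highest, lowest and next are meant among these 8. Clusters are named by number and by their leading genes. Differences between clusters are descriptions with no test, since the clusters were made from expression in these nuclei. Members took 4.09% of the UMIs in cluster 12, 2.83% in cluster 3, 2.74% in cluster 8, 2.46% in cluster 9 and 1.57% in cluster 7.

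Cluster 12, led by Prkcd and Lef1, had the highest family share. Kcnip4 there ranged from 20242 to 27311 CPM (mean 25128 ± 1900, SD, n = 17), with 12267 CPM in cluster 9 next and 4004 ± 794 CPM in cluster 7 lowest. Kcnc2, the channel of fast-firing neurons, ranged from 2511 to 3115 CPM in cluster 12 and from 650 to 1090 CPM in cluster 1, the next highest. In cluster 9 it had 15.2 ± 4.22 CPM (SD, n = 17), a ratio of means of 186 between the extremes. Kcnn3 with 197 ± 19.4 CPM and the strong inward rectifier Kcnj12 with 30.2 ± 4.06 CPM were also highest in cluster 12. Kcnh1, an ether-a-go-go channel, was lowest there with 14.3 ± 5.14 CPM.

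Cluster 1, led by the inhibitory neuron genes Dlx6os1 and Gad2, carried the auxiliary subunits Kcnip1 and Kcnmb2. Kcnip1 ranged from 355 to 552 CPM, with 69.5 CPM in cluster 10 next and 1.41 CPM in cluster 3. Kcnmb2 ranged from 317 to 542 CPM, with 117 CPM in cluster 12 and 2.19 CPM in cluster 3. Both genes are among the leading genes of cluster 1. The silent subunit Kcns3 had 33.0 ± 7.41 CPM there (SD, n = 17).

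Clusters 3 and 8 had the highest Kcnq5 and Kcnb2. Kcnq5 had 2703 ± 211 CPM in cluster 3, which Rorb leads, and 2779 ± 200 CPM in cluster 8, led by Tshz2, while cluster 9 had 48.8 ± 12.01 CPM (SD, n = 17), a ratio of 57.0 between cluster 8 and cluster 9. Kcnb2 had 1409 ± 107 and 1416 ± 168 CPM in clusters 3 and 8, which overlapped, and 247 ± 21.5 CPM in cluster 7. Cluster 3 led for Kcnh1, Kcnh5 and Kcnh7. Kcnh5 ranged from 423 to 612 CPM there, with 223 CPM in cluster 8, and Kcnh7 ranged from 2484 to 3277 CPM, with 2078 CPM in cluster 7 and 310 CPM in cluster 9. Kcnh1 had 399 ± 43.9 CPM in cluster 3.

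Cluster 9, led by Glis3 and Prox1, had the highest G protein-gated inward rectifiers and silent Kcng subunits. Kcnj6 had 753 ± 78.4 CPM (SD, n = 17), with 392 CPM in cluster 5 next. Kcnj3 had 830 ± 85.3 CPM, overlapping cluster 3 with 552 CPM. Kcng2 had 62.5 ± 7.07 CPM, with 19.7 CPM in cluster 5 next, and Kcng1 had 34.9 ± 3.79 CPM.

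Cluster 10, led by the striatal genes Rgs9 and Penk, had Kcnab1 at 833 ± 147 CPM and Kcnh4 at 42.1 CPM. Its Kcnd2 level of 4026 ± 441 CPM was close to 3992 ± 308 CPM in cluster 9, and cluster 7 was lowest with 1833 ± 168 CPM (SD, n = 17). Cluster 7, led by Hs3st4 and Tle4, had the highest Kcnmb4, a neuronal beta subunit of Kcnma1, with 93.4 ± 11.7 CPM, and Kcnk2 with 192 ± 18.7 CPM. Kcnma1 itself ranged from 1054 ± 100 CPM in cluster 10 to 2076 ± 172 CPM in cluster 8.

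**Figure D2:**
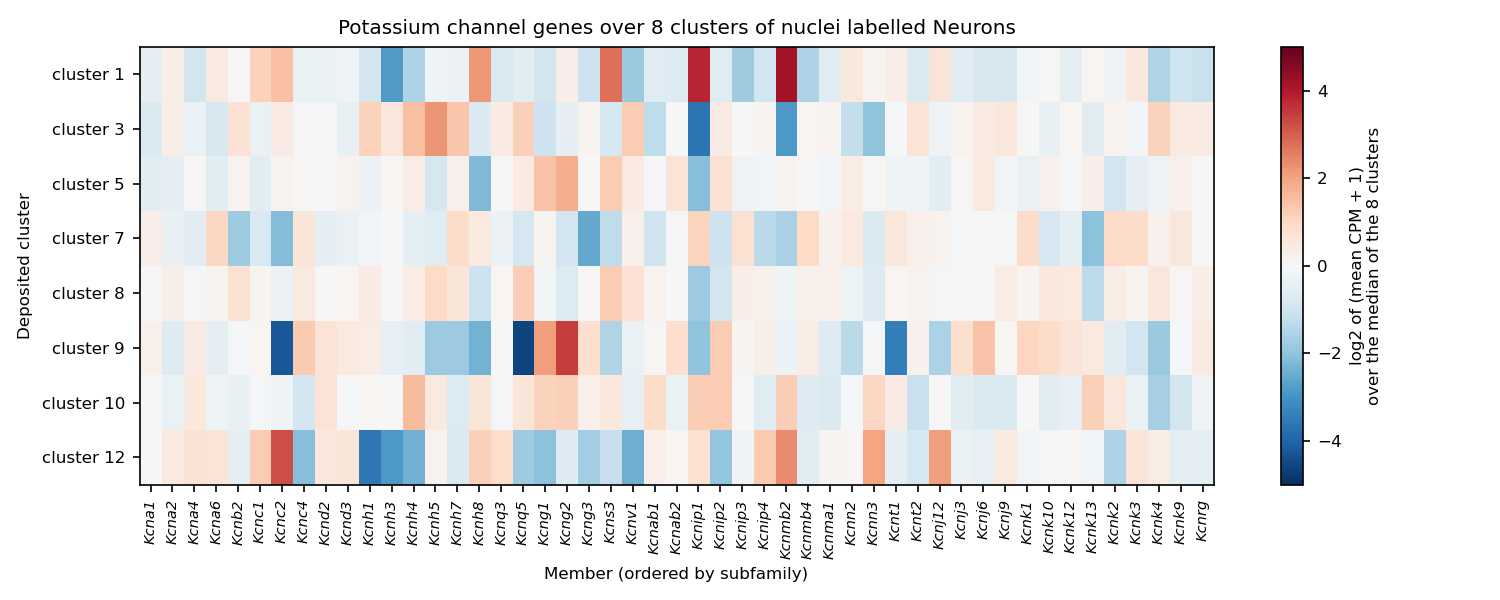
Level of members in 8 clusters of nuclei labelled Neurons, as log2 of mean CPM + 1 over the median of the 8 clusters, with members along the horizontal axis ordered by subfamily. Red marks a level above that median and blue one below it: Kcnip1 and Kcnmb2 stand out in cluster 1, Kcnc2 in cluster 12 and Kcng2 in cluster 9, while Kcnq5 and Kcnc2 are deepest blue in cluster 9.

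Some clusters labelled Neurons had the leading genes of other cells. Cluster 13, 7336 nuclei led by Pdgfra, Cspg4 and Vcan, which mark oligodendrocyte precursors, had Kcnh8 at 472 ± 39.7 CPM, Kcnip3 at 779 ± 96.4, Kcnj16 at 44.3 ± 6.76 and Kcnd2 at 4399 ± 390 CPM (SD, n = 17). Kcnip4 was only 327 ± 115 CPM there. Cluster 2, 5818 nuclei with oligodendrocyte leading genes, had Kcna1 at 252 CPM, Kcna6 at 177 CPM and Kcnk13 at 347 ± 65.1 CPM, near the values of the Oligodendrocytes label. Cluster 11, 1284 nuclei led by the microglial genes Inpp5d and Ikzf1, had Kcnk13 at 255 ± 87.8 CPM and Kcnk6 at 46.9 ± 29.5 CPM. The authors' doublet calls covered 44.9% of cluster 4, 62.0% of cluster 6, 55.4% of cluster 14, 97.03% of cluster 17 and 85.4% of cluster 18. Levels in these clusters are not described. All of them enter the treatment counts over clusters below. Among the 8 clusters compared, doublet calls covered 30.2% of cluster 5, 27.1% of cluster 10, 30.4% of cluster 12 and 5.72 to 11.95% of the others.

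Cluster 16, 3151 nuclei with Gabra6 and Fat2 as leading genes, was not uniform over animals. The animals with 200 nuclei or more in it were Malat1 ASO replicate 3, anti-TfR:Malat1 replicates 1 and 2 and OTV:Malat1 replicate 1. They had 363 to 1249 nuclei, and the other 13 animals had 22 to 93. Kcnd2 was 10404, 12823, 8968 and 9383 CPM in the 4 animals and 449 to 6325 CPM with a median of 2166 in the 13. Kcnb2 had the opposite order, with 403, 417, 556 and 721 CPM against 1459 to 4356 CPM with a median of 2058. Kcnk10 was 340 to 448 CPM in the 4 animals and 0 to 238 CPM in the others. Kcnq5 was 211 to 455 CPM against 983 to 2534 CPM, and Kcnc2 was 73.2 to 166 against 478 to 1176 CPM. The cerebellar granule cell receptor gene Gabra6 moved with these, at 522 to 584 CPM against 0 to 200 CPM, and Ndnf, an interneuron gene, ran the other way at 27.5 to 130 against 301 to 1452 CPM. The summed list of cerebellar granule cell markers overlapped, at 2133 to 2587 CPM in the 4 animals and 1471 to 6547 CPM in the 13. Reln, which stands in that list and in the list for Adarb2 interneurons, was lower on average in the 4 animals, at 1495 ± 231 against 2934 ± 1286 CPM (SD, n = 4 and 13). The ranges of Kcnd2, Kcnb2, Kcnk10, Kcnq5 and Kcnc2 did not overlap between these sets of animals. Since the division at 200 nuclei was made after the values were seen, it is a description. No treatment difference of a single member is described for cluster 16, but its fit is among those of the 17 clusters counted by treatment, and those counts are also given without it.

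**Figure D3:**
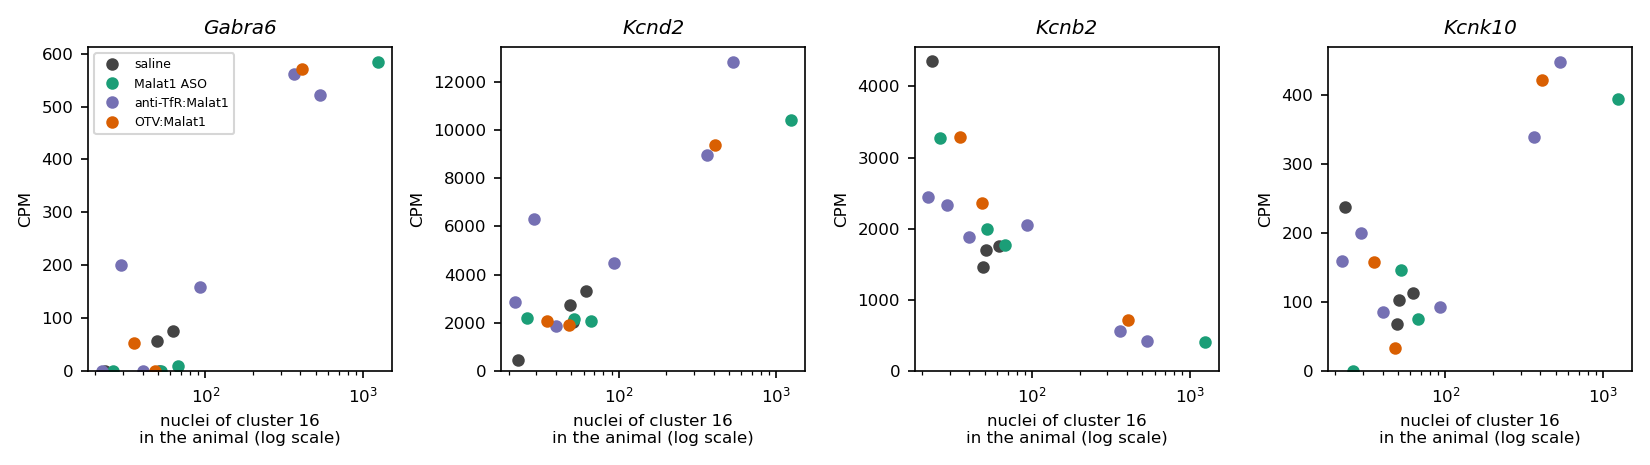
CPM of the marker gene Gabra6 and of Kcnd2, Kcnb2 and Kcnk10 in cluster 16 against the number of nuclei the animal had in that cluster (log axis), 1 point per animal coloured by treatment group. The 4 animals with 363 to 1249 nuclei have high Kcnd2 and Kcnk10 and low Kcnb2, and they belong to 3 treatment groups.

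The treatments were compared as sums per animal by edgeR's quasi-likelihood test in 24 fits, 1 of all nuclei, 6 by label and 17 by cluster under the Neurons label. The comparisons were each treated group with saline and the conjugates with each other (OTV:Malat1 minus anti-TfR:Malat1). Those with saline share the saline animals. Nothing in the labels says how the animals were housed or whether any shared a preparation, so p-values measure the spread between these animals.

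No member passed an adjusted p of 0.05 in any of the 4944 member tests of these fits without a batch term. In all nuclei 88 of 97 members were tested, in Neurons 86 and in Oligodendrocytes 65. The lowest adjusted p of a member was 0.124. The background was low as well. By the same rule 0.0208% of genes were called in Oligodendrocytes for OTV:Malat1 against saline and 0.00694% against anti-TfR:Malat1. In Astrocytes 0.0117% were called in both OTV:Malat1 comparisons, in Microglia 0.011% for OTV:Malat1 against saline, in cluster 2 0.0142% in both OTV:Malat1 comparisons, and 0% in every other comparison. The oligonucleotide's target was among the genes called. In Oligodendrocytes Malat1 took 10.2 ± 1.75% of UMIs after saline (n = 4) and 1.67 ± 0.205% after OTV:Malat1 (SD, n = 3), and it fell by 2.79 on the log2 scale (adjusted p = 8.74e-08, edgeR). In Neurons it took 6.40 ± 1.48% after saline and 4.28 ± 0.685% after OTV:Malat1, with overlapping ranges, and was not called (log2 -0.64, adjusted p = 1.00, edgeR), nor was it in all nuclei (log2 -0.84, adjusted p = 1.00, edgeR).

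At an unadjusted p under 0.05, members were counted as follows. In all nuclei 1 of 88 members was higher after Malat1 ASO than after saline (1.14% of members against 0.604% of all genes), 0 passed for anti-TfR:Malat1 or OTV:Malat1 against saline (1.21 and 1.11% of all genes), and 4 were lower after OTV:Malat1 than after anti-TfR:Malat1 (4.55% against 1.61%). Over the 6 labels, with 232 member tests in each comparison, the last comparison had 2 higher and 13 lower (6.47% against 3.02%). OTV:Malat1 minus saline had 9 higher and 8 lower (7.33% against 2.68%). In that comparison Vascular cells gave 4 higher of 11 tests and Perivascular macrophages 3 lower of 8, both from small sums. Malat1 ASO had 7 higher and 3 lower (4.31% against 1.53%) and anti-TfR:Malat1 5 higher and 1 lower (2.59% against 2.03%). Over the 17 clusters, with 916 member tests, OTV:Malat1 minus anti-TfR:Malat1 had 10 higher and 56 lower, which is 7.21% of member tests against 3.41% of all gene tests. These are tests, not separate members: Kcnd2 passed in 9 clusters and Kcnb2 in 8, and the clusters come from the same animals. The comparisons with saline were nearer to all genes, with 1.75% against 1.83% for Malat1 ASO, 3.17% against 2.50% for anti-TfR:Malat1 and 3.49% against 2.71% for OTV:Malat1. Without cluster 16, OTV:Malat1 minus anti-TfR:Malat1 again had 10 higher and 56 lower, of 890 member tests (7.42% against 3.45% of all gene tests). The comparisons with saline then had 1.80% against 1.82%, 3.03% against 2.45% and 3.60% against 2.71% in the same order. DESeq2 called 2 members among the 11 calls it made over the clusters for OTV:Malat1 minus anti-TfR:Malat1, and 0 members in all other comparisons. Kcnd2 was lower in cluster 3 (adjusted p = 0.0122, DESeq2), where 3 genes, 0.0147% of those tested, were called. Kcnj3 was lower in cluster 12 (adjusted p = 0.0404, DESeq2), where 7 genes, 0.0367%, were called.

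Kcnd2 in cluster 3 was 2347, 2322, 2228 and 2494 CPM after saline, 2146, 2542, 2357 and 2365 after Malat1 ASO, 2135 to 2661 with a median of 2561 after anti-TfR:Malat1, and 2132, 1952 and 1982 after OTV:Malat1. All 3 OTV:Malat1 animals lay below every saline and anti-TfR:Malat1 animal, the nearest values being 2132 and 2135 CPM. In this cluster 557 of 14745 genes did not overlap between OTV:Malat1 and anti-TfR:Malat1, 25 of them lower. Between OTV:Malat1 and saline 894 did not overlap, 100 of them lower. The fitted log2 difference was -0.40 with a standard error of 0.0859 against anti-TfR:Malat1 (adjusted p = 0.993, edgeR) and -0.31 with 0.0918 against saline. Within the authors' batches 2, 3 and 4 the log2 ratio to anti-TfR:Malat1 was -0.27, -0.18 and -0.37. Here and below, ratios within batches are of plain CPM, whereas the fits scale the libraries by TMM, so the values are not on the same scale. Batch 1 held no OTV:Malat1 animal.

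Kcnj3 in cluster 12 was 358, 440, 432 and 432 CPM after saline, 368, 385, 451 and 403 after Malat1 ASO, 323 to 486 with a median of 404 after anti-TfR:Malat1, and 284, 297 and 350 after OTV:Malat1. The OTV:Malat1 animals lay below all saline animals and overlapped anti-TfR:Malat1. The share of all genes without overlap in cluster 12 is not given here, so the separation from saline has no background beside it. The fitted log2 difference was -0.47 with a standard error of 0.119 against anti-TfR:Malat1 (adjusted p = 0.791, edgeR). Within batches 2, 3 and 4 the log2 ratio to anti-TfR:Malat1 was -0.78, -0.43 and -0.05.

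Over Neurons as a whole the groups overlapped for Kcnd2 and Kcnb2. Kcnd2 was 2520, 2354, 2297 and 2651 CPM after saline, 2316, 2695, 2628 and 2652 after Malat1 ASO, 2032 to 2951 with a median of 2570 after anti-TfR:Malat1, and 2418, 2238 and 2169 after OTV:Malat1. Its fitted log2 difference between OTV:Malat1 and anti-TfR:Malat1 was -0.26 with a standard error of 0.0991 (adjusted p = 0.994, edgeR). The within-batch log2 ratios were -0.05, 0.02 and -0.31 by plain CPM. For this comparison the median of all genes in Neurons was 0.11 by plain CPM, against 0.01 in the fit. Kcnb2 was 879, 868, 863 and 893 CPM after saline, 898, 847, 879 and 884 after Malat1 ASO, 858 to 980 with a median of 927 after anti-TfR:Malat1, and 852, 802 and 904 after OTV:Malat1. Its fitted log2 difference was -0.20 with a standard error of 0.0614. Kcnip4, the most abundant member, had group means of 8600 ± 850, 8793 ± 954, 8974 ± 993 and 8747 ± 335 CPM in the same order (SD, n = 4, 4, 6 and 3), which lie within 1 SD of each other.

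Over the 17 clusters the fitted difference of Kcnd2 between OTV:Malat1 and anti-TfR:Malat1 was below 0 in 17, with a median of -0.26 and a range of -1.002 to -0.10 on the log2 scale. Kcnb2 was below 0 in 16, Kcnip4 and Kcnma1 in 15, Kcnq3 in 14, Kcnq5 in 13, Kcnj3 and Kcnc2 in 12 and Kcnh7 in 11. In OTV:Malat1 minus saline, Kcnb2 was below 0 in 16, Kcnd2 in 14, Kcnma1 and Kcnq5 in 13, Kcnq3 in 11, Kcnip4 and Kcnh7 in 10, Kcnc2 in 9 and Kcnj3 in 7. In anti-TfR:Malat1 minus saline, the same genes were above 0 more often than below, Kcnip4 in 16, Kcnd2, Kcnb2, Kcnma1, Kcnq3 and Kcnj3 in 15, Kcnc2 and Kcnh7 in 11 and Kcnq5 in 10. This was not particular to the conjugate. In Malat1 ASO minus saline, Kcnd2 and Kcnj3 were above 0 in 15, Kcnma1, Kcnq3 and Kcnq5 in 14 and Kcnb2, Kcnc2, Kcnh7 and Kcnip4 in 12. These comparisons share groups of animals. Kcnj3 and Kcnc2 span 186 and 196 kb, and the other genes named here over 200 kb. In Neurons as a whole, 89.9% of all genes over 200 kb were below 0 for OTV:Malat1 minus anti-TfR:Malat1. Against saline the share was 73.2% for OTV:Malat1, 15.7% for anti-TfR:Malat1 and 23.8% for Malat1 ASO. Between 20 and 200 kb the shares were 59.7, 58.3, 46.0 and 49.7% in the same order. The clusters come from the same animals and are not separate replicates. None of these passed the adjusted threshold in edgeR. The lowest adjusted p was 0.124 for Malat1 ASO minus saline, 0.791 for OTV:Malat1 minus anti-TfR:Malat1, 0.991 for OTV:Malat1 minus saline and 0.708 for anti-TfR:Malat1 minus saline (edgeR). The last value is from cluster 16, where anti-TfR:Malat1 replicates 1 and 2 were among the 4 animals that stood apart. Over the 16 clusters without it, the lowest adjusted p for anti-TfR:Malat1 minus saline was 0.911 in edgeR and those of the other comparisons were as above. There, OTV:Malat1 minus anti-TfR:Malat1 was below 0 in 16 for Kcnd2 and Kcnb2, with a median of -0.25 for Kcnd2, and in 11 to 15 for the other 7 genes. OTV:Malat1 minus saline was below 0 in 15 for Kcnb2, 14 for Kcnd2 and 7 to 12 for the others. For all 9, anti-TfR:Malat1 minus saline was above 0 in 10 to 15 and Malat1 ASO minus saline in 12 to 14.

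**Figure D4:**
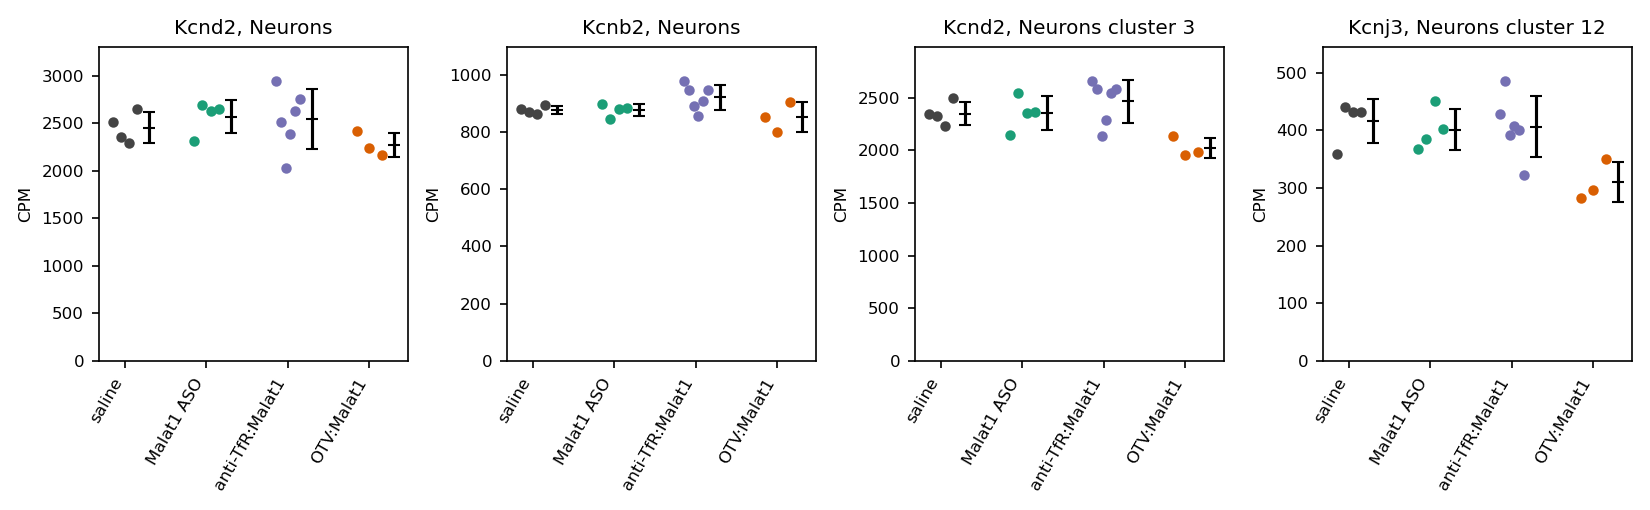
CPM per animal of Kcnd2 and Kcnb2 in Neurons, Kcnd2 in cluster 3 and Kcnj3 in cluster 12, with 1 point per animal in the 4 treatment groups and the mean ± SD beside them. In cluster 3 the 3 OTV:Malat1 points for Kcnd2 lie at 1952 to 2132 CPM and below all saline and anti-TfR:Malat1 points, while the groups overlap for both genes in Neurons.

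The number of members below 0 differed between plain CPM and libraries scaled by TMM or size factors. In Neurons, OTV:Malat1 minus anti-TfR:Malat1, 62 of 86 members were below 0 with TMM scaling (median -0.07 on the log2 scale). The count was also 62 with DESeq2-type size factors, with TMM after Malat1 was left out and in DESeq2. As ratios of mean CPM, 34 of 86 were below 0 (median 0.02), and with Malat1 left out of the totals 42 of 86 were (median 0.0008). CPM is a share, and Malat1 took a smaller share after OTV:Malat1. The median of all genes was 0.11 as a ratio of mean CPM, 0.08 with Malat1 left out of the totals and 0.01 with TMM. Leaving Malat1 out of the totals thus removed only a part of the shift. In each of these scalings the median of the members was below that of all genes. In Oligodendrocytes, OTV:Malat1 minus saline, the median of all genes was 0.19 as a ratio of mean CPM, 0.06 with Malat1 left out and 0.01 with TMM. There, 24 of 65 members were below 0 with TMM, 11 of 65 by CPM and 18 of 65 by CPM without Malat1. In Neurons, OTV:Malat1 minus saline, the members below 0 were 57 of 86 with TMM and 34 of 86 by CPM. By role, with TMM, all 3 Kcnd members (median -0.23), 4 of 5 Kcnq, 7 of 8 Kcnh and 10 of 12 auxiliary members were below 0 in Neurons for OTV:Malat1 minus anti-TfR:Malat1. The Kcna members stood at a median of -0.02 and the silent subunits at -0.04.

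Gene span moved with these differences, among the members and among all genes alike. In Neurons, OTV:Malat1 minus anti-TfR:Malat1 with TMM, the 1025 genes over 200 kb had a median log2 difference of -0.10, and 89.9% were below 0. The 18 members over 200 kb had a median of -0.12, and 17 were below 0. Between 20 and 200 kb the medians were -0.02 for all genes and -0.07 for 37 members, and under 20 kb they were 0.08 for all genes and -0.01 for 30 members. In Oligodendrocytes the genes over 200 kb had a median of -0.14 and the 17 such members -0.36, with 16 below 0. Malat1 ASO minus saline in Neurons had medians of 0.03 for all genes over 200 kb and 0.02 for those members. The same medians were 0.07 and 0.07 for anti-TfR:Malat1 minus saline, with 2 of 18 members below 0, and -0.04 and -0.05 for OTV:Malat1 minus saline, with 15 of 18 below 0. Kcnd2, Kcnb2 and Kcnip4 are all over 200 kb. The part of gene span in their values was not tested.

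**Figure D5:**
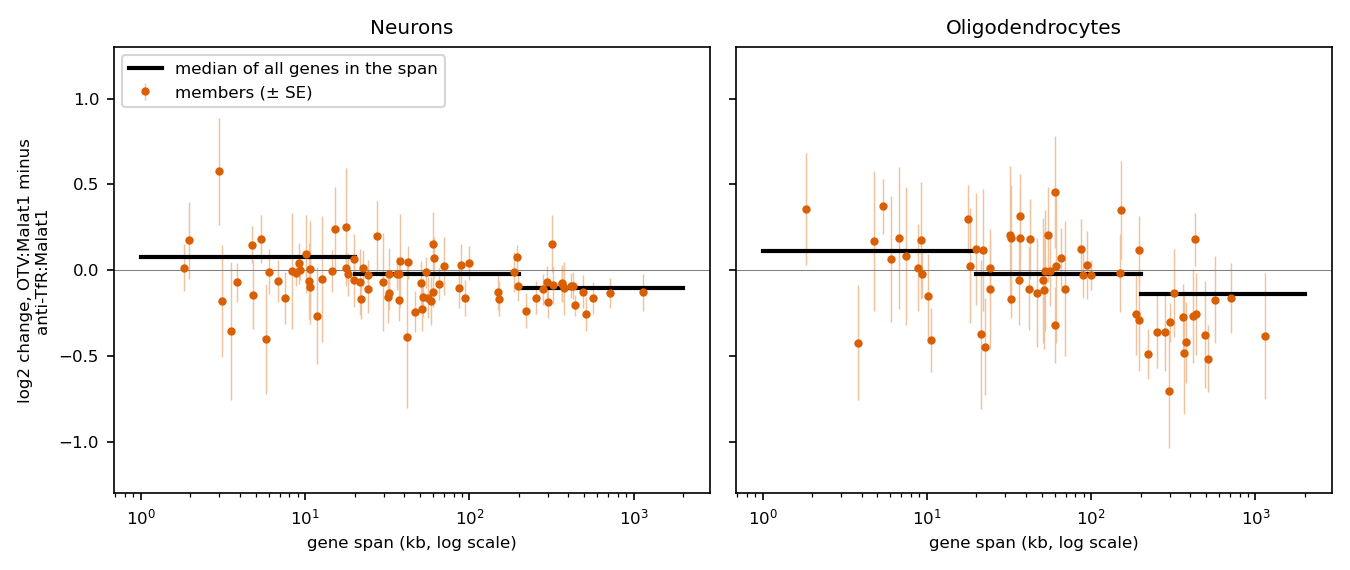
Fitted log2 difference between OTV:Malat1 and anti-TfR:Malat1 (TMM scaling) of each member against its gene span in kb (log axis) in Neurons and in Oligodendrocytes, with bars of 1 standard error and black lines for the median of all genes in 3 ranges of span. Members over 200 kb lie mostly below 0 in both panels, as does the line for all genes of that span.

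Members whose groups did not overlap in CPM were few. In all nuclei they were 1 of 88 for Malat1 ASO against saline (background 0.636% of genes), 0 for anti-TfR:Malat1 against saline (0.351%), 2 for OTV:Malat1 against saline (3.83%) and 1 for OTV:Malat1 against anti-TfR:Malat1 (1.97%). In Neurons they were 1 of 86 (0.66%), 1 (0.364%), 3 (3.79%) and 0 (2.53%) in the same order. In Oligodendrocytes they were 2 of 65 (0.929%), 1 (0.541%), 7 (11.8%) and 1 (3.97%). The members' shares were near the background, or rest on 1 or 2 genes. Of the 1706 genes that did not overlap in Oligodendrocytes between OTV:Malat1 and saline, 1679 were higher and 27 lower. With Malat1 left out of the totals, 405 were higher and 174 lower, and 4 members did not overlap instead of 7.

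Among those members, Kcnab2, a beta subunit of Kcna channels, was low in Oligodendrocytes. It was not among the 11 members above the range of neuron markers in that label, and the part of neuronal RNA in its values was not tested. It was 4.43, 4.53, 4.46 and 4.41 CPM after saline, 3.59, 5.15, 3.95 and 4.73 after Malat1 ASO, 4.78 to 7.95 with a median of 5.94 after anti-TfR:Malat1, and 6.79, 8.60 and 6.07 after OTV:Malat1. Both conjugate groups lay above all saline animals. The fitted log2 difference to saline was 0.51 with a standard error of 0.190 for OTV:Malat1 (adjusted p = 0.968, edgeR) and 0.39 for anti-TfR:Malat1 (adjusted p = 1.00, edgeR). Within batches 2, 3 and 4 the OTV:Malat1 animals stood 0.59, 0.95 and 0.46 above saline as a log2 ratio of plain CPM. For this comparison the median of all genes was 0.19 by plain CPM, against 0.01 in the fit. The acid-sensitive leak channel Kcnk3 was 1.69, 2.56, 1.55 and 2.61 CPM after saline and 3.48, 4.49 and 3.64 after OTV:Malat1, with a fitted log2 difference of 0.71 and a standard error of 0.271. Kcnmb4os2, named as an opposite-strand transcript of Kcnmb4, was 0.633, 0.929, 0.970 and 0.401 CPM after saline, 1.93, 2.66, 1.48 and 1.23 after Malat1 ASO and 2.09, 1.80 and 1.70 after OTV:Malat1. No source used here says whether counting kept the strand, which leaves members on opposite strands uncertain: this gene, Kcnip1 and Kcnmb1, Kcnd3 and Kcnd3os, and Kcnmb4 and Kcnmb4os1, which overlap on mm10.

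Other members without overlap passed no adjusted threshold either. The sperm channel gene Kcnu1 in Oligodendrocytes was 9.51 to 11.4 CPM after saline and 11.5 to 12.3 after Malat1 ASO, a fitted log2 difference of 0.18. Kcnn3 there was 1.71 to 2.19 CPM after anti-TfR:Malat1 and 2.44 to 3.15 after OTV:Malat1 (0.35). In the same label the silent subunit Kcns3, singled out after its values were seen, was 0.847 ± 0.294 CPM after saline and 2.05 ± 0.334 after OTV:Malat1 (1.13, SD, n = 4 and 3). Kcnn3 was not among the 11 members above the range of neuron markers in Oligodendrocytes. The part of neuronal RNA in the Kcnn3 and Kcns3 values was not tested. In Neurons, the small-conductance channel Kcnn1 was 3.25 to 3.63 CPM after saline and 3.85 to 4.09 after OTV:Malat1 (0.17), and Kcnj16 was 1.26 to 1.85 after saline and 1.90 to 2.03 after OTV:Malat1 (0.26). Cluster 13, led by precursor genes, held 699 of the 1652 Kcnj16 UMIs under that label. The leak channel Kcnk3 was 11.9 to 12.3 CPM after saline and 12.3 to 12.7 after OTV:Malat1 in Neurons (-0.02), and 10.5 to 11.01 against 11.2 to 11.8 in all nuclei (0.02). Kcnmb3, a beta subunit of Kcnma1, was 0.292 to 0.341 CPM after saline, 0.173 to 0.271 after Malat1 ASO (-0.51) and 0.102 to 0.288 after anti-TfR:Malat1 (-0.40) in Neurons. The leak channel Kcnk2 in all nuclei was 67.9 to 87.7 CPM after anti-TfR:Malat1 and 87.8 to 98.8 after OTV:Malat1 (0.06). Kcnk13 in Oligodendrocytes was 326, 377, 339 and 391 CPM after saline and 391, 397 and 423 after OTV:Malat1, the nearest values being 390.6 and 390.9. Its fitted log2 difference was -0.01, and the groups overlapped with Malat1 left out of the totals. So did the groups of Kcnu1 in Oligodendrocytes, Kcnj16 in Neurons, Kcnk3 in Neurons and all nuclei, and Kcnk2 in all nuclei.

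Most members that stood apart in glial labels had overlapping treatment groups, apart from Kcnk13 above and Kcnj8 below. In Oligodendrocytes, Kcnq3 was 1112, 1162, 1058 and 1373 CPM after saline and 1229, 1022 and 1269 after OTV:Malat1, and Kcna1 was 271, 227, 269 and 262 against 271, 234 and 347 CPM. In Astrocytes, Kcnn2 had means of 515, 532, 495 and 465 CPM over saline, Malat1 ASO, anti-TfR:Malat1 and OTV:Malat1. In Microglia, Kcnk13 had means of 295, 279, 304 and 294 CPM and Kcnk6 means of 71.1, 55.5, 76.9 and 64.0 CPM in the same order. In Vascular cells, Kcnj8 was 70.2, 69.4, 51.7 and 21.0 CPM after saline, 57.5, 118, 43.7 and 33.6 after Malat1 ASO, 25.7 to 127 with a median of 47.8 after anti-TfR:Malat1, and 83.0, 232 and 87.7 after OTV:Malat1. The OTV:Malat1 animals were above all saline animals and overlapped the others, in a comparison with saline where 204 of 3312 genes did not overlap. The Vascular cells sums held 95332 to 171058 UMIs of all genes per animal after saline and 57020 to 108477 after OTV:Malat1. These values therefore rest on few Kcnj8 UMIs. Of the nuclei under this label, those with mural markers, which held most Kcnj8 UMIs, were 39.5, 30.8, 21.5 and 23.5% after saline and 41.5, 33.3 and 38.2% after OTV:Malat1. The mural shares overlapped between these groups, and their part in the Kcnj8 levels was not tested.

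A few differences stood in small sums that also held RNA of neurons. Kcnma1 in Vascular cells was 46.8, 59.5, 62.0 and 42.0 CPM after saline, 82.2, 103, 184 and 168 after Malat1 ASO, 14.1 to 192 with a median of 102 after anti-TfR:Malat1, and 240, 42.3 and 351 after OTV:Malat1. The anti-TfR:Malat1 and OTV:Malat1 groups both overlapped saline. The Malat1 ASO animals lay above all saline animals, in a comparison where 85 of 3312 genes did not overlap. The fitted log2 difference of Kcnma1 between OTV:Malat1 and saline was 1.90 with a standard error of 0.556 (adjusted p = 0.554, edgeR). The OTV:Malat1 values rested on 26, 4 and 20 UMIs, of which up to 15, 1 and 16 came from 1 nucleus. Neuron markers in Vascular cells summed to 848 to 1720 CPM after saline and to 2111, 972 and 2578 CPM after OTV:Malat1. After Malat1 ASO they summed to 1087 to 1966 CPM and overlapped saline, unlike Kcnma1. Within batches 2, 3 and 4 the log2 ratio of Kcnma1 between OTV:Malat1 and saline was 2.01, -0.55 and 3.06. Without OTV:Malat1 replicate 2 the difference was 2.41 (adjusted p = 0.047, edgeR). The part of neuronal RNA and of single nuclei in this value was not tested.

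The lowest adjusted p of any member was that of Kcnq3 in cluster 11, the cluster led by microglial genes. It was 59.9, 21.5, 138 and 65.1 CPM after saline and 418, 217, 207 and 306 after Malat1 ASO, without overlap. The sums of cluster 11 held 33364 to 92195 UMIs of all genes per animal after saline and 64375 to 107867 after Malat1 ASO. The saline values therefore rest on few Kcnq3 UMIs. The fitted log2 difference was 2.03 with a standard error of 0.482 (adjusted p = 0.124, edgeR), and within batches 1 to 4 the log2 ratio was 2.80, 3.34, 0.58 and 2.23. Many genes moved in this comparison. In cluster 11, 274 of 2245 genes had an unadjusted p under 0.05 (edgeR), among them 4 of 13 members. Kcnd2 in the same nuclei was 629, 43.1, 178 and 304 CPM after saline and 879, 684, 2720 and 918 after Malat1 ASO (2.32, adjusted p = 0.151, edgeR). Without anti-TfR:Malat1 replicate 1 in the fit, both passed the threshold (adjusted p = 0.049 and 0.0486, edgeR). Animals of 1 batch deviated together, and with batch as a block Kcnq3 had an adjusted p of 0.0264 and Kcnd2 of 0.0544 (edgeR). Neuron markers summed to 1788 to 2578 CPM after saline and 3254 to 4523 CPM after Malat1 ASO, in 35 to 136 nuclei per animal. Precursor markers summed to 0 to 98.9 CPM after saline and 83.4 to 202 after Malat1 ASO. Cerebellar granule markers were 524.6 CPM in Malat1 ASO replicate 3, the animal with Kcnd2 at 2720 CPM, and at most 302 CPM in the other animals of both groups. The 302 CPM were in saline replicate 2, whose Kcnd2 was the lowest at 43.1 CPM. Reln stands in this marker list and in that for Adarb2 interneurons, so the sum is not particular to granule cells. The part of RNA from these other cell types in both genes' values was not tested.

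The genes of 19 known partners of these channels were followed alongside. Dpp10 and Dpp6, which join Kcnd channels with Kcnip subunits, had 4184 and 996 CPM in Neurons. Cntnap2, the axonal organiser of Kcna channels, had 3271 CPM in Neurons, and its companion Cntn2 had 347 CPM in Oligodendrocytes against 30.0 in Neurons, the same highest label as Kcna1 and Kcna6. Dlg1, a scaffold of channels, had 739 CPM in Oligodendrocytes and 332 in Neurons, and Dlg2 had 5585 CPM in Neurons and 1781 in Oligodendrocytes. Lgi1, a secreted regulator of Kcna channels, was highest in Astrocytes with 347 CPM, against 125 CPM in Neurons. In all nuclei 17 of the 19 were tested, and 0 passed the adjusted threshold in any comparison of the 24 fits (edgeR).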

How the data were processed

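Nuclear RNA from sorted nuclei of frozen brain was measured by droplet sequencing (10x). Per the submitters' processing notes, Cell Ranger 6.0.1, Seurat 4 and the mm10 genome were used. The authors deposited UMI counts per gene and nucleus as whole numbers, per the file headers with no normalization, and the sum of each nucleus equalled its deposited total in all 284074. The authors also deposited cell type labels, clusters at resolution 0.4, batch numbers of unstated meaning and doublet calls on 47758 nuclei, which were kept here. The label prediction and doublet scores that the authors deposited per nucleus lie between 0 and 1, as a fraction, and enter no value here. Of the metadata columns, 9 were not used.

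UMIs were summed per animal over labels and clusters with 20 or more nuclei, and CPM used the total of those sums (the floor given with a 0 is from the UMIs of the label pooled over animals). Genes passing filterByExpr were fitted over 17 animals with TMM scaling by edgeR 4.0.16 (glmQLFit, glmQLFTest) in R 4.3.3, two-sided, with Benjamini-Hochberg adjustment over all genes of a fit and a threshold of 0.05. Fits needed 2 or more animals in each group. DESeq2 1.42.0 was an alternative, besides other size factors, no filter, Malat1 left out, pairs of groups alone, blocks by replicate number and by batch, doublets left out and each animal left out. The fits were also run on simulated data, and the outcome is not reported here. Tables and figures used Python 3.11.15 with numpy 2.4.6, pandas 2.3.3, scipy 1.17.1 and matplotlib 3.10.9. Gene spans came from RefSeq on GRCm38, the assembly of mm10, where 96 of 97 members matched.

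The members, the lists and the tests were chosen with earlier results of these data known. Named for levels were up to 4 members per role with the highest CPM in any label or cluster, and up to 2 per label and cluster with the largest ratio to the median among those at 20 CPM or more. Named for treatment was any member past the threshold, and in all nuclei, Neurons and Oligodendrocytes up to 3 each way per comparison with the smallest p among those whose groups do not overlap. A fixed set of 21 was always open to naming, from Kcnip4 and Kcnd2 to Kcnk2 and Kcnt2. Kcnb2 by treatment, Kcnj3 in cluster 12, Kcnma1 in Vascular cells and both genes in cluster 11 were singled out after their values were seen. A search of member proteins for the selectivity filter was not run. Some genes are not reported here by name.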

Additional observations from a re-analysis of the deposited data

Results flagged for a closer look

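In 10 of 105 groups of per-animal values examined, 1 animal stood far from the others by Dixon's criterion, which chance alone meets in about 1 of 20 groups. In Neurons, Kcnma1 was lowest in anti-TfR:Malat1 replicate 3 with 1346 CPM, the other animals of the group having 1538 to 1578. In Oligodendrocytes, Kcnk13 was highest in Malat1 ASO replicate 3 with 383.4 CPM against 344.5 to 349.7. In Microglia, Kcnk6 was highest in saline replicate 4 with 107.8 CPM against 56.59 to 60.87. In all nuclei, Kcnk2 was lowest in anti-TfR:Malat1 replicate 1 with 67.91 CPM against 81.5 to 87.66, and Kcnk3 was lowest in saline replicate 1 with 10.48 CPM against 10.93 to 11.01. In cluster 12, Kcnj3 was lowest in saline replicate 1 with 358.4 CPM against 431.9 to 440.

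The other 4 were in small clusters. Kcnd2 in cluster 11 was highest in Malat1 ASO replicate 3 with 2720 CPM against 683.5 to 917.8, and in anti-TfR:Malat1 replicate 1 with 2983 CPM against 254 to 1102. These animals also had the highest cerebellar granule markers in cluster 11, 524.6 and 544.5 CPM, against 0 to 302 CPM in the other 15 animals. The animal at 302 CPM, saline replicate 2, had Kcnd2 at only 43.1 CPM. The marker sum includes Reln, which is not particular to granule cells, and the part of that RNA was not tested. In cluster 16, Kcnd2 was highest in Malat1 ASO replicate 3 with 10404 CPM against 2059 to 2203, and Kcnb2 was highest in saline replicate 1 with 4356 CPM against 1459 to 1757. Malat1 ASO replicate 3 also had the most nuclei of cluster 16, with 1249.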

How the results depend on the processing

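The count of called members was 0 in every comparison of the edgeR test as described. Leaving out the filter on low counts gave 1 for Malat1 ASO and 3 for OTV:Malat1 over the labels, and 5 for Malat1 ASO, 3 for anti-TfR:Malat1 and 1 for OTV:Malat1 over the clusters, all against saline, with 1 over the clusters for OTV:Malat1 minus anti-TfR:Malat1. For that last comparison DESeq2 gave 2. For Malat1 ASO over the clusters, a batch block gave 1, and a replicate block, the fit of only the 2 groups compared and leaving out the authors' doublets gave 2 each. Leaving out 1 animal gave 0 to 1 over the labels for OTV:Malat1 against saline (1 without OTV:Malat1 replicate 2) and 0 to 2 over the clusters for Malat1 ASO (2 without anti-TfR:Malat1 replicate 1). Partner genes, also 0, became 4, 2 and 1 against saline for Malat1 ASO, anti-TfR:Malat1 and OTV:Malat1 and 3 for OTV:Malat1 minus anti-TfR:Malat1 with no filter. They became 1 for Malat1 ASO with a replicate block or without doublets and 1 for OTV:Malat1 against saline with a replicate block, and leaving out 1 animal gave 0 to 1 there (1 without OTV:Malat1 replicate 2). The cause was not tested. Apart from DESeq2 above, the share of all genes called in these alternatives is not given. The counts therefore do not say whether members were called more often than other genes.

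Of 846 alternative values for 34 named log2 differences, 817 kept direction and side of the threshold, 14 passed it and 15 changed sign. The sign changes were in small OTV:Malat1 minus saline differences. Kcnip4 in Neurons became 0.027 with the replicate block and ran from -0.094 to 0.038 when 1 animal was left out. Kcnk13 ran from -0.054 to 0.036 in Oligodendrocytes, and in Microglia from -0.082 to 0.0058, with 0.00052 under a batch block. Kcna1 in Oligodendrocytes ran from -0.21 to 0.11. Kcnk3 ran from -0.018 to 0.079 in all nuclei, with -0.034 without doublets, and from -0.044 to 0.040 in Neurons, with 0.0088 under a batch block. Those passing the threshold were Kcnd2 in cluster 3 and Kcnj3 in cluster 12 by DESeq2, Kcnma1 in Vascular cells in 2 alternatives (1.78 with no filter) and Kcnq3 and Kcnd2 in cluster 11 in 5 each.

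Replicate numbers did not pair the animals: of 21 same-numbered pairs, 8 correlated over 0.1 (median 0.07), while 21 of 27 pairs of the same batch did (median 0.36). Of 420 alternative levels 395 moved by less than 1 SD. Those that moved included Kcnd2 and Kcnb2 in cluster 16, 8910 and 850 CPM from pooled counts, and Kcnab1 in cluster 10, 1005 CPM without doublets. With Malat1 left out of the totals, members that did not overlap between OTV:Malat1 and saline numbered 1 instead of 2 in all nuclei, 4 instead of 7 in Oligodendrocytes and 2 (1 higher, 1 lower) instead of 3 (all higher) in Neurons. By that scaling, the background in all nuclei was 328 genes higher and 189 lower of 21375. It was 405 and 174 of 14419 in Oligodendrocytes and 398 and 168 of 20906 in Neurons. OTV:Malat1 minus anti-TfR:Malat1 gave 0 instead of 1 in all nuclei and 2 instead of 1 in Oligodendrocytes, where Malat1 ASO against saline gave 1 instead of 2 and anti-TfR:Malat1 2 instead of 1. Among all genes, OTV:Malat1 minus anti-TfR:Malat1 had 200 higher and 39 lower in all nuclei and 161 and 74 in Oligodendrocytes. In Oligodendrocytes against saline, Malat1 ASO had 91 higher and 61 lower and anti-TfR:Malat1 29 and 32. Depth limits Vascular cells, Perivascular macrophages and Glia, whose sums are small.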
